A study of Mus musculus with 6 samples.

Results

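Dendritic cells of the mouse kidney were studied across 3 ways of turning the tissue into single cells. The cells were chosen by their own UMI counts (unique molecular identifiers, each standing for 1 captured RNA molecule): at least 2 UMIs over Cd209a, Flt3, Xcr1, Clec10a and Il12b together, at least 5 UMIs of Cd74, at most 2 UMIs over the complement genes C1qa, C1qb and C1qc, none of Cd79a or of Cd3d, Cd3e and Cd3g, and at most 1 of Pecam1. A total of 384 cells met this rule, of 24212 kidney cells kept with 200 to 3000 genes and at most 50% mitochondrial UMIs, of 34034 kidney cells deposited and of 58561 cells in the whole series, which also holds mammary tumor cells.

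Dendritic cells take up antigen in tissues, display it on MHC molecules and carry it to lymph nodes, where they prime T cells. Conventional dendritic cells fall into a Xcr1 and Clec9a expressing branch, which is specialised in presenting material from dead cells to CD8 T cells and is a source of interleukin 12, and a branch marked in mouse by Cd209a, Clec10a and Sirpa, which presents antigen mainly to CD4 T cells. On maturation, cells of either branch gain Ccr7, the chemokine receptor that guides them to lymph nodes, and raise costimulatory molecules, and in kidney they share the interstitium with a larger network of resident macrophages.

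All groups came from kidneys of male C57BL/6 mice aged 12 weeks, with no genetic or drug treatment named. In the control, minced kidney was digested with collagenase for 60 min with shaking, then pipetted, vortexed and strained. In the platform groups, minced kidney was digested with the same enzyme in a recirculating microfluidic device and passed once through a dissociation and filter device, with cells collected after 15 min and again from the same tissue at 60 min. Dead cells were removed by sorting on SytoxBlue in every group, and each of the 3 groups is 1 10x Genomics library, so no difference between groups has a replicate check and intervals cover counting error only.

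The control held 107 dendritic cells, the 15 min interval 14 and the 60 min interval 263. Their total was 1119358 UMIs in control cells, 115654 after 15 min and 2478386 after 60 min, and levels of a gene are its UMIs per 1000000 of these totals. Median depth per cell was close, at 10672, 8812 and 10290 UMIs in the same order, with 2349, 2377 and 2312 genes. The lower end was not: 53 of the 60 min cells, or 20.2%, held under 3000 UMIs, against 3 in the control and 1 at 15 min. Libraries shared 53 cell barcodes between the control and 15 min, 93 between the control and 60 min and 211 between 15 min and 60 min, and no barcode belonged to a dendritic cell in a pair of libraries. A dendritic cell shared its barcode with a cell outside the rule in 1 case between the control and 60 min and in 1 case between 15 min and 60 min. Just inside the rule, cells with exactly 2 UMIs over the 5 selecting genes numbered 5 in control cells, 3 after 15 min and 35 after 60 min. Just outside it, cells with 1 such UMI that met every other condition numbered 14, 4 and 53.

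Genes of the dendritic lineage that the rule did not use were present in the cells of all 3 libraries. Zbtb46, a transcription factor of conventional dendritic cells, stood at 39.3 in control, 69.2 after 15 min and 32.7 after 60 min, against 0.364, 2.76 and 1.02 in macrophages selected on C1q UMIs. Wdfy4, required for presentation of cell-derived antigen on MHC class I, stood at 154 in control, 216 after 15 min and 193 after 60 min, against 22.7 to 30.01 in macrophages and 46.7 to 59.2 in B lymphocytes selected on Cd79a. A Wdfy4 UMI was seen in 63.3% of the dendritic cells (median 10433 UMIs) and in 0.154% of proximal tubule cells (median 6706), which should lack it. After each cell was thinned to 2000 UMIs the shares were 23.7% and 0.0572%, with 38 dendritic and 750 tubule cells too shallow to thin. Both genes stood higher in dendritic cells than in macrophages in each library. Wdfy4 was among the markers given for these cells with earlier results of these data known, so its values are a description. Flt3, the growth factor receptor used in the rule, stood at 78.6 in control, 129.7 after 15 min and 98.5 after 60 min, given as a description.

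Dendritic cells made up 1.82% of kept control cells (exact binomial 95% interval 1.49 to 2.19%), 0.167% of those from the 15 min interval (0.0913 to 0.280%) and 2.65% of those from the 60 min interval (2.34 to 2.98%). The control share was 10.9 times that at 15 min (6.25 to 19.00), and the 60 min share 1.46 times that of the control (1.17 to 1.82). Dendritic cells were thus scarcest in the first platform interval. The gap between the control and the second interval was smaller under settings that bear on depth and without Il12b in the rule. With every cell thinned to 2000 UMIs before selection the shares were 1.63% in the control and 1.92% at 60 min, a ratio of 1.18 (0.908 to 1.54). Among cells with at least 3000 UMIs alone, a setting chosen after the data were seen, they were 2.32% and 2.86%, a ratio of 1.23 (0.978 to 1.55). Both intervals include 1. Il12b alone admitted 19 of the 60 min cells and 0 in the control. Without Il12b among the selecting genes, also chosen after the data were seen, the ratio was 1.35 (1.07 to 1.68). Proximal tubule cells made up 51.4%, 85.1% and 28.3% of kept cells in the same order, and their part in the shares of dendritic cells was not tested.

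Set against all leukocytes, the control and the 60 min interval lay closer together. Against macrophages alone a gap between them remained under the rule as given. Among kept cells with a UMI of Ptprc, the pan-leukocyte gene, dendritic cells were 7.48% of control cells (6.14 to 9.004%), 2.28% of 15 min cells (1.18 to 3.95%) and 8.04% of 60 min cells (7.10 to 9.07%). Macrophages numbered 7.45 per dendritic cell in control cells, 8.86 after 15 min and 5.30 after 60 min. Of dendritic cells and macrophages together, dendritic cells were 11.8% (9.80 to 14.1%), 10.1% (5.66 to 16.4%) and 15.9% (14.1 to 17.7%). The binomial interval ended at 14.12% in the control and began at 14.14% at 60 min, so these only just did not overlap. The selecting gene Il12b alone admitted 19 of the 60 min cells and 0 in the control. These shares were not recomputed without it, so no conclusion is drawn from the gap. The 15 min interval overlaps both others, so a difference between dendritic cells and macrophages in how scarce they were at 15 min was not detectable.

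The cells were sorted into classes by class genes, with Ccr7 (at least 2 UMIs) taken first, then Xcr1 and Clec9a together or Cd209a and Clec10a together (at least 2 UMIs and more than the other pair). Xcr1 (ENSMUSG00000060509, chr9:123852315-123862029 on mm10) encodes the receptor for the chemokine Xcl1, and Clec9a (ENSMUSG00000046080, chr6:129408862-129424763) a receptor for exposed actin of dead cells, while Cd209a (ENSMUSG00000031494, chr8:3743397-3748984) and Clec10a (ENSMUSG00000000318, chr11:70156197-70170834) encode lectins. Of the 384 cells, 222 were of the Cd209a/Clec10a class, 85 of the Xcr1/Clec9a class, 47 of the Ccr7 class and 30 of neither. By gene pair, 96 cells had UMIs of Xcr1 or Clec9a alone, 248 of Cd209a or Clec10a alone and 22 of both, and 5 cells reached 2 UMIs of both pairs. Xcr1, Cd209a and Clec10a also selected the cells, so the classes and their shares are a description.

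The Xcr1/Clec9a class made up 10.3% of the control cells (11 cells, 5.24 to 17.7%), 14.3% at 15 min (2 cells, 1.78 to 42.8%) and 27.4% at 60 min (72 cells, 22.1 to 33.2%). The Cd209a/Clec10a class made up 70.1% (60.5 to 78.6%), 85.7% (57.2 to 98.2%) and 51.3% (45.1 to 57.5%). As a description of 1 library each, the share of the Xcr1/Clec9a class was higher at 60 min than in the control. The size of this gap depended on the upper limit of 3000 genes per cell. Of 60 control cells that met the UMI rule with more than 3000 genes, 34 were of the Xcr1/Clec9a class, and 64 of 109 were at 60 min. Without that limit the class made up 26.9% of the control cells (20.4 to 34.3%) and 36.6% at 60 min (31.7 to 41.7%), with intervals that overlap. With every cell thinned to 2000 UMIs before selection the shares were 7.32% and 16.6%.

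**Figure D1:**
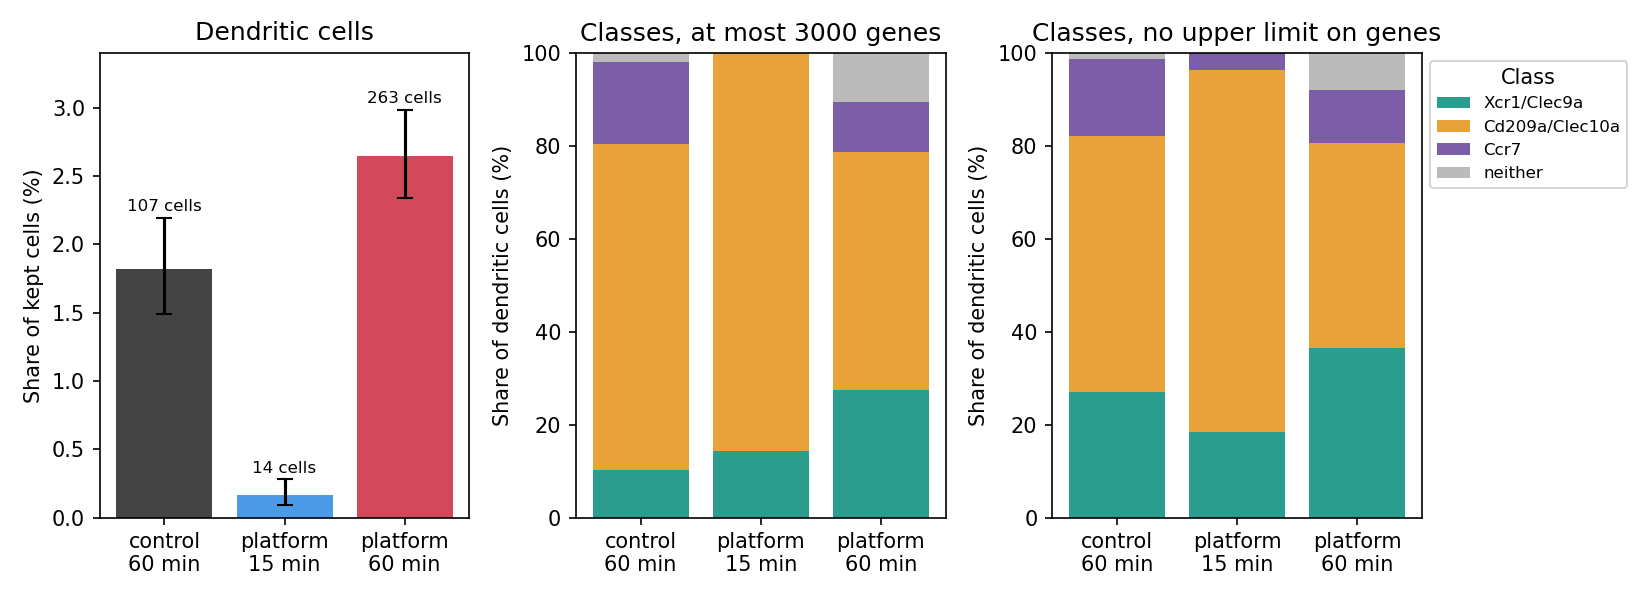
Left, dendritic cells as a share of kept cells (%) in each library, with exact binomial 95% intervals as error bars and the number of cells above. Middle and right, the classes as stacked shares of dendritic cells (%) with and without the limit of 3000 genes per cell; the Xcr1/Clec9a class goes from 10.3% to 26.9% in the control when the limit is lifted, and from 27.4% to 36.6% at 60 min.

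The Ccr7 class held 19 control cells, or 17.8% (11.04 to 26.3%), and 28 cells at 60 min, or 10.6% (7.19 to 15.02%). No 15 min cell was in it and no Ccr7 UMI was seen there, which with 14 cells allows a class share of up to 23.2%, while without the limit of 3000 genes the class held 1 of 27 cells there. A Ccr7 UMI was present in 0.246% of tubule cells and in 17.7% of dendritic cells, at the depths given above. Most Ccr7 class cells of the control and of 60 min also held at least 2 UMIs of Cd209a and Clec10a together. They fell in the Ccr7 class because Ccr7 was taken first. Cells of neither class numbered 2 in the control and 28 at 60 min, and those at 60 min were shallow, with a median of 1919.5 UMIs. Cells at exactly 2 UMIs of their class genes were 10 of the Xcr1/Clec9a class, 15 of the Cd209a/Clec10a class and 5 of the Ccr7 class at 60 min, against 0, 3 and 3 in the control.

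Some genes that did not define the classes followed them. Irf8, a transcription factor needed by the Xcr1 branch, stood at 1064 in the control and 1184 at 60 min within the Xcr1/Clec9a class, and at 139 and 103 within the Cd209a/Clec10a class. Naaa, a lysosomal amide hydrolase, stood at 677 and 729 against 60.3 and 82.6. Tlr3, the sensor of double-stranded RNA, stood at 115 and 133 in the first class, with 0 and 1 UMIs in the second. In the other direction, Sirpa, a receptor for the self signal CD47, stood at 96.8 and 83.4 in the Cd209a/Clec10a class, with 0 and 1 UMIs in the Xcr1/Clec9a class. Mgl2, a galactose-binding lectin, stood at 646 and 547, with 0 and 1 UMIs in the other class. Each of these 5 genes kept its side in both libraries, so the classes also differed in some genes that had not defined them. The 5 were picked from the branch lists after their values were seen. Notch2, of the Cd209a branch list, stood at 121 in the control and 128 at 60 min in the Xcr1/Clec9a class.

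Some genes known from mature dendritic cells were read by class. Fscn1, an actin bundler of mature dendritic cells, stood at 49.5 in the control and 410.3 at 60 min in the Ccr7 class, with no UMI in the Xcr1/Clec9a and Cd209a/Clec10a classes of either library, though 1 cell gave 84.6% of the control's Fscn1 UMIs and 50.8% of those at 60 min. Ccl22, which attracts Ccr4-bearing T cells, stood at 329 and 1101 in the Ccr7 class, 218 and 256 in the Xcr1/Clec9a class and 108 and 115 in the Cd209a/Clec10a class. Ccl5, which attracts effector T cells, stood at 626 and 4491 in the Ccr7 class, 42.3 and 40.4 in the Xcr1/Clec9a class and 25.3 and 215 in the Cd209a/Clec10a class. A single cell gave 78.7% of all Ccl5 UMIs of the control dendritic cells and 14.4% of those at 60 min. Over all dendritic cells the Ccl5 ratio of 60 min to control was 4.71 (4.01 to 5.57), and it was 2.03 with cells thinned to 2000 UMIs before selection and 8.49 in the Cd209a/Clec10a class alone. A Ccl5 UMI was also seen in 1.12% of tubule cells in the control and 4.05% at 60 min, against 8.41% and 23.6% of dendritic cells. With these cells thinned to 2000 UMIs the shares were 0.297% and 1.38%, against 3.77% and 16.4%. The part of this background in the ratios was not tested.

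Il12b (ENSMUSG00000004296, chr11:44400063-44414033) encodes the p40 chain shared by interleukins 12 and 23, and it is 1 of the genes that selected the cells, so its values are a description. It had 57 UMIs in 6 control cells, none at 15 min and 1546 UMIs in 65 cells at 60 min, or 50.9 (38.6 to 65.98) and 624 (593 to 656) in the control and at 60 min. The zero at 15 min allows up to 31.9, by the exact Poisson interval. It also depended on the limit of 3000 genes, since without it 1 cell of the Ccr7 class and 1 of the Xcr1/Clec9a class, of 27 cells at 15 min, held Il12b. At 60 min 1134 of its UMIs came from the Xcr1/Clec9a class and 347 from the Ccr7 class. A single cell held 261 of the latter, and it also had 17 UMIs of Xcr1 and Clec9a. Another 63 of the 60 min UMIs came from cells of neither class, where 14 of 28 cells held Il12b. Of those 28 cells, 15 met the rule without Il12b.

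Within the Xcr1/Clec9a class, 3 of 11 control cells and 41 of 72 cells at 60 min held Il12b, or 27.3% (6.02 to 60.97%) and 56.9% (44.7 to 68.6%). With cells of that class thinned to 2000 UMIs, the shares were 18.2% of 11 and 48.4% of 64 cells, and among tubule cells 0.0661% in the control and 0.213% at 60 min had an Il12b UMI before thinning. Median depths were 16534 and 13776 UMIs in the class and 5730.5 and 6258 in tubule cells.

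The level of Il12b in that class was 248 in the control and 1271 at 60 min, a ratio of 5.13 (3.76 to 7.19). A single cell held 26 of the 41 control UMIs of the class, and without that cell the control level was 102 and the ratio 12.5 (7.54 to 22.4). Without the top cell of each library the ratio was 11.4 (6.89 to 20.5). Leaving out cells that only Il12b admitted kept 36 of 67 class cells positive at 60 min and the same 3 of 11 in the control. Without the limit of 3000 genes the class had Il12b in 17 of 45 control cells (37.8%) and 74 of 136 at 60 min (54.4%), at levels of 163 and 885. The Cd209a/Clec10a class was almost without the transcript, with 0 UMIs in 75 control cells, 0 in 12 at 15 min and 2 in 135 at 60 min. Of the partner chains, Il12a had no UMI in any dendritic cell, and Il23a had 2, 0 and 11 UMIs in the 3 libraries in the same order.

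**Figure D2:**
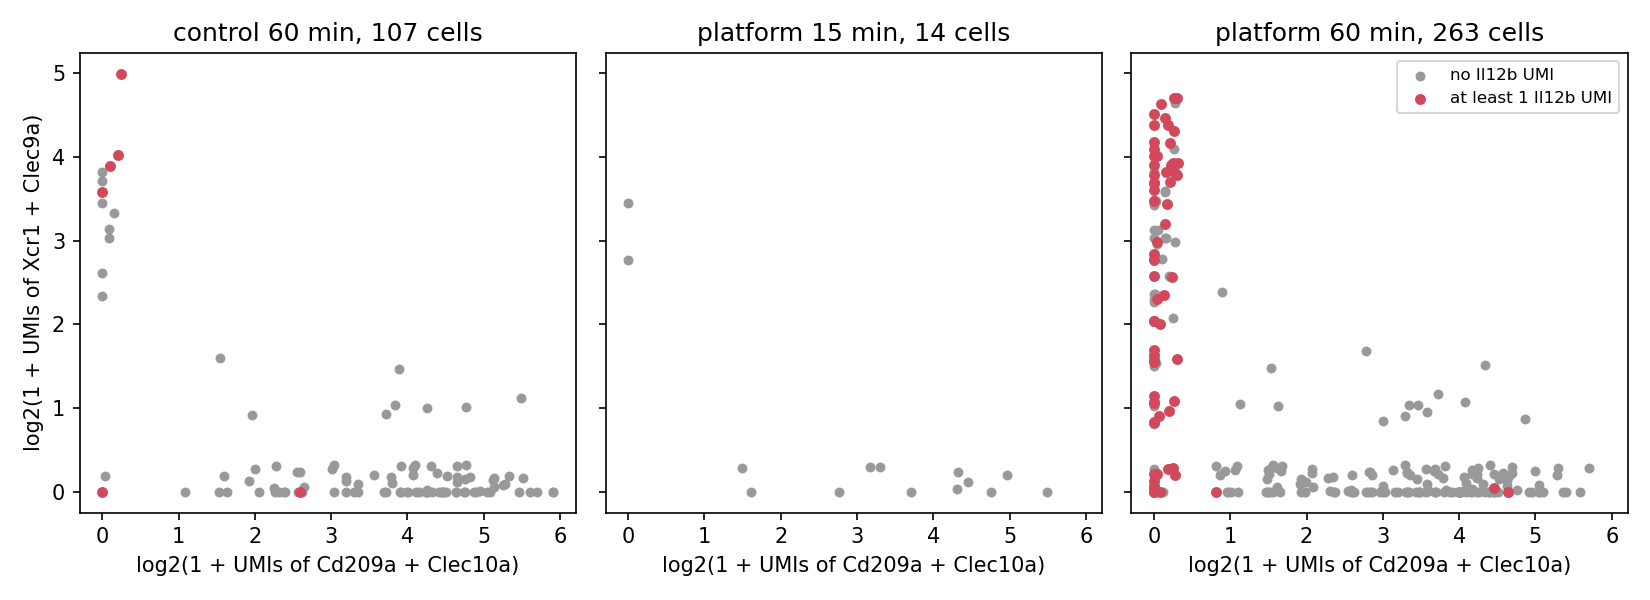
Each point is 1 dendritic cell, placed by its UMIs of Cd209a and Clec10a together (x axis) and of Xcr1 and Clec9a together (y axis), both as log2 of 1 plus UMIs with a small random shift so that points do not hide each other. Cells with an Il12b UMI are red, 6 in control cells, 0 after 15 min and 65 after 60 min.

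Across all genes, the 60 min interval was set against the control. Of 5226 genes with at least 50 UMIs in both libraries together and a UMI in at least 10 cells, 161 (3.08%) were at least 2-fold higher at 60 min and 64 (1.22%) at least 2-fold lower, with a median log2 ratio of -0.02. Lifting the limit of 3000 genes gave 323 higher and 69 lower among 7610 genes, and averaging over cells in place of summing gave 332 and 60. The counts were 47 and 16 with cells thinned to 2000 UMIs, 81 and 23 in the Cd209a/Clec10a class alone, 436 and 189 at a minimum of 20 UMIs and 82 and 24 at 100 UMIs, each with its own number of genes read. At 15 min only 14 cells were found, under the 30 required, so no ratio was read across genes and list genes are given by value.

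Cytokine and chemokine genes stood out by count, with 8 of 15 genes read outside the rule at least 2-fold higher at 60 min and 0 lower, beside 3.08% and 1.22% of all genes read, and a median log2 ratio of 1.16. Their summed level was 7701 in control, 2646 after 15 min and 16317 after 60 min. This sum includes the selecting gene Il12b, whose part is given above, and is a description. Ccl4 (chr11:83662584-83664683), a chemokine that attracts T cells and monocytes, was the most abundant at 60 min, with 1554 in control, 225 after 15 min and 5853 after 60 min, and its ratio of 60 min to control was 3.77 (3.58 to 3.96). The related chemokine Ccl3 stood at 585 in control, 182 after 15 min and 1582 after 60 min, a ratio of 2.70 (2.49 to 2.94). Both genes were lowest at 15 min and highest at 60 min, and in the Cd209a/Clec10a class alone the ratios were 4.20 and 3.81, at least as large as over all dendritic cells.

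Tnf, the gene of tumor necrosis factor, stood at 167 in control, 147 after 15 min and 516 after 60 min, a ratio of 3.09 (2.65 to 3.62). Cxcl10, an interferon-induced attractant of Cxcr3-bearing T cells, stood at 129.5 in the control and 496 at 60 min with no UMI at 15 min, a ratio of 3.83 (3.22 to 4.58) that was 5.77 in the Cd209a/Clec10a class alone. Il1b, the interleukin 1 beta gene, differed less between the longer digestions, at 3608 in control, 467 after 15 min and 4780.1 after 60 min, a ratio of 1.32 (1.28 to 1.37). Tgfb1, the gene of a suppressive cytokine, stood lower at 60 min, at 245 in control, 208 after 15 min and 161 after 60 min and a ratio of 0.656 (0.561 to 0.768). In macrophages of the same libraries the summed list, with Il12b again included, stood at 22641 in control, 11700.3 after 15 min and 38769.8 after 60 min. Whether the cell types differed in this was not tested.

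Among the 10 genes with the highest ratios of 60 min to control were Il12b, with 12.2 (9.40 to 16.3), and the neutrophil attractant Cxcl2, with 11.1 (7.03 to 18.6) from 19 and 467 UMIs. Il12b is a selecting gene that alone admitted 19 cells at 60 min and 0 in the control, so its ratio and rank are a description. Ifnb1, the gene of interferon beta, had no UMI in the control or at 15 min and 65 UMIs in 21 cells at 60 min. Its ratio was 9.79 with the control set to 3 counts. Among proximal tubule cells an Ifnb1 UMI was found in 0 of 3026 control cells and 20 of 2813 at 60 min (0.711%, median 6258 UMIs), against 7.98% of dendritic cells there (median 10290). With cells thinned to 2000 UMIs it was found at 60 min in 7 of 226 dendritic cells and 9 of 2534 tubule cells, with 37 and 279 too shallow to thin. Ifnb1 UMIs at 60 min were thus not limited to dendritic cells. Ifit1, an antiviral effector induced by interferon, had 6 UMIs in the control and 222 at 60 min, a ratio of 16.7 (7.56 to 46.03). In macrophages Ifnb1 stood at 16.2 in control, 2.76 after 15 min and 715 after 60 min and Ifit1 at 21.7 in control, 15.2 after 15 min and 505 after 60 min. The rest of the 10 were the histone gene Hist1h2ap with 21.7 (5.84 to 182), Tmem39a of the endoplasmic reticulum with 10.3 (4.86 to 25.9), the acid phosphatase Acp5 with 7.23 (3.20 to 20.2), the fatty acid receptor Ffar4 with 6.77 (2.99 to 18.9), the protein C receptor Procr with 6.40 (2.82 to 17.9) and the long noncoding RNA Gm26917.

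Several of these sizes moved when the limit of 3000 genes was lifted. The ratio was then 7.48 for Il12b, 4.997 for Cxcl2, 4.77 for Tmem39a, 4.24 for Acp5 and 3.36 for Hist1h2ap. It was 15.7 for Ifnb1, while Ffar4 was under 2-fold at 1.93. Hist1h2ap, counted from 2 control UMIs, was at 44.2 among cells without C1q UMIs, and Il12b at 19.5 with cells thinned to 2000 UMIs before selection.

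Gm26917 had the highest ratio, 25.8 (20.5 to 32.8), and its level went with depth. At 60 min it took 39197 in the 53 cells under 3000 UMIs and 257 in the deeper cells. Among cells with at least 3000 UMIs alone, a setting chosen after the data were seen, the ratio was 3.87. It was 3.94 with at least 20 UMIs of Cd74, 16.7 without the limit of 3000 genes, 14.1 without Il12b among the selecting genes, another setting chosen after the data were seen, and 124 as a mean over cells. With cells thinned to 2000 UMIs before selection the ratio was higher, at 34.3. The shallow 60 min cells also held 10.9% mitochondrial UMIs against 6.04% in the deeper ones, and less Cd74, at 17718 against 24750. Without the shallow cells 141 genes were at least 2-fold higher and 68 lower at 60 min.

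Metallothioneins, which bind zinc and copper, gave 2 of the 10 lowest ratios. Mt2 stood at 182 in the control and 29.1 at 60 min with no UMI at 15 min, a ratio of 0.159 (0.120 to 0.210), and Mt1 (chr8:94179082-94180327) at 1367 in control, 69.2 after 15 min and 369.6 after 60 min, a ratio of 0.270 (0.249 to 0.294). Both platform intervals were thus below the control for this pair. Macrophages had Mt1 at 831 in control, 339.9 after 15 min and 933 after 60 min, so below the control at 15 min alone. The difference between the cell types was not tested. The other 8 of the lowest 10 were the small GTPase Rrad with 0.216 (0.158 to 0.293), the interleukin 7 receptor Il7r with 0.221 (0.130 to 0.368), AA467197 with 0.244 (0.155 to 0.379), the Egr corepressor Nab2 with 0.254 (0.134 to 0.466), the fungal lectin receptor Clec4n with 0.282 (0.173 to 0.455), the cyclic AMP regulated factor Crem with 0.313 (0.216 to 0.452), the shared cytokine receptor chain Csf2rb with 0.333 (0.269 to 0.412) and the lambda light chain gene Iglc3 with 0.340 (0.235 to 0.490). In the Cd209a/Clec10a class alone Rrad was at 0.607, no longer past 2-fold, and 0.436 without the limit of 3000 genes. Clec4n had 17 and 29 UMIs in that class, too few to be read there, at a ratio of 1.03. Nab2 was at 0.135 when averaged over cells. Iglc3 came from 4 control cells and 7 at 60 min.

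Among interferon-stimulated genes 4 of 11 read were at least 2-fold higher at 60 min and 0 lower, beside 3.08% and 1.22% of all genes read, yet the summed level was 1061 in control, 1072 after 15 min and 1235 after 60 min. The sum was carried by Ifi27l2a, at 465 in control, 605 after 15 min and 388 after 60 min, while Rsad2, an inhibitor of viral budding, stood at 14.3 in control, 8.65 after 15 min and 62.9 after 60 min, and Isg15, a ubiquitin-like modifier, at 95.6 in control, 25.9 after 15 min and 199 after 60 min. In the Cd209a/Clec10a class alone Ifi27l2a stood at 421 in the control and 552 at 60 min, the opposite order. There the sum was 968 and 1534, a ratio of 1.58 (1.45 to 1.73), 8 of 8 genes had a ratio above 1 beside 1700 of 3570 over all genes, and the median log2 ratio was 1.10 against 0.18 over all dendritic cells. Macrophages had a sum of 1873 in the control and 4314 at 60 min.

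Antigen presentation genes were read as a list for each MHC class. The MHC class II list of 12 genes, which holds the class II chains, their chaperones and processing enzymes, summed to 71919 in control cells (71423 to 72417), 68739.5 after 15 min (67237 to 70268) and 58490.5 after 60 min (58189.8 to 58792). The sum includes the rule gene Cd74, at 30429.9 in control, 31655 after 15 min and 24484 after 60 min, and is a description. Of the 10 read and not used in the rule none was past 2-fold, beside 3.08% and 1.22% of all genes, which for so few genes is near that background. A ratio above 1 was seen for 1 of the 10, beside 2500 of the 5226 genes, and the median log2 ratio was -0.29. H2-Ab1, the class II beta chain, stood at 13710.5 in control, 11958 after 15 min and 11262 after 60 min, a ratio of 0.821 (0.805 to 0.838). H2-DMb2, part of the chaperone that loads peptide, stood at 169.7 in control, 60.5 after 15 min and 120.2 after 60 min, against 11.5 to 16.6 in macrophages. In the Cd209a/Clec10a class alone the median was -0.11, nearer to the -0.03 of all genes read there, and the Xcr1/Clec9a class had less H2-Ab1, at 10344 in the control and 9477 at 60 min.

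For MHC class I and its peptide supply, 13 of 13 genes were read, none was past 2-fold, again near the 3.08% and 1.22% of all genes, and the median log2 ratio was 0.07. The sum was 7404 in control, 8257 after 15 min and 7213 after 60 min, with H2-D1, a class I heavy chain, as the most abundant. Psme1, an activator of the proteasome that makes class I peptides, stood at 943 and 846 in the Xcr1/Clec9a class in the control and at 60 min, and at 305 and 355 in the Cd209a/Clec10a class.

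Genes of activation separated the 15 min cells from both longer digestions. The summed costimulation list of 9 genes stood at 2166 in control cells (2080.2 to 2253), 225 after 15 min (147 to 329) and 2655 after 60 min (2591 to 2719.9), so the control was 9.63 times the 15 min level (6.56 to 14.8). Cd83, which stabilises MHC class II at the surface of activated dendritic cells, was the most abundant of the list in both longer digestions, at 1331 in control, 43.2 after 15 min and 1411 after 60 min. A Cd83 UMI was found in 93 of 107, 4 of 14 and 233 of 263 cells, or 79.2%, 14.3% and 78.8% with cells thinned to 2000 UMIs, where 0.780%, 0.128% and 2.09% of thinned tubule cells had one. The low Cd83 at 15 min was a matter of most cells, not of a few. In macrophages Cd83 stood at 1548 in control, 323 after 15 min and 1806 after 60 min, also lowest at 15 min.

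Tnfsf9, the ligand of the T cell receptor 4-1BB, stood at 424 in control, 17.3 after 15 min and 816 after 60 min, with 2 UMIs behind the 15 min value. Nfkbia, the inhibitor that NF-kB induces against itself, stood at 1989.5 in control, 294 after 15 min and 2812 after 60 min, the control being 6.77 times the 15 min level (4.83 to 9.80). For Il1b that ratio was 7.73 (5.91 to 10.3) and for Dusp2, a phosphatase that ends MAP kinase signals, 17.01 (5.79 to 82.8). The levels of these 3 transcripts were lower in the 15 min library than in the control. The intervals lie above 1 but cover counting error only. Single cells weigh on values from 14 cells: 1 cell gave 57.4% of the Il1b UMIs and 38.2% of the Nfkbia UMIs at 15 min.

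**Figure D3:**
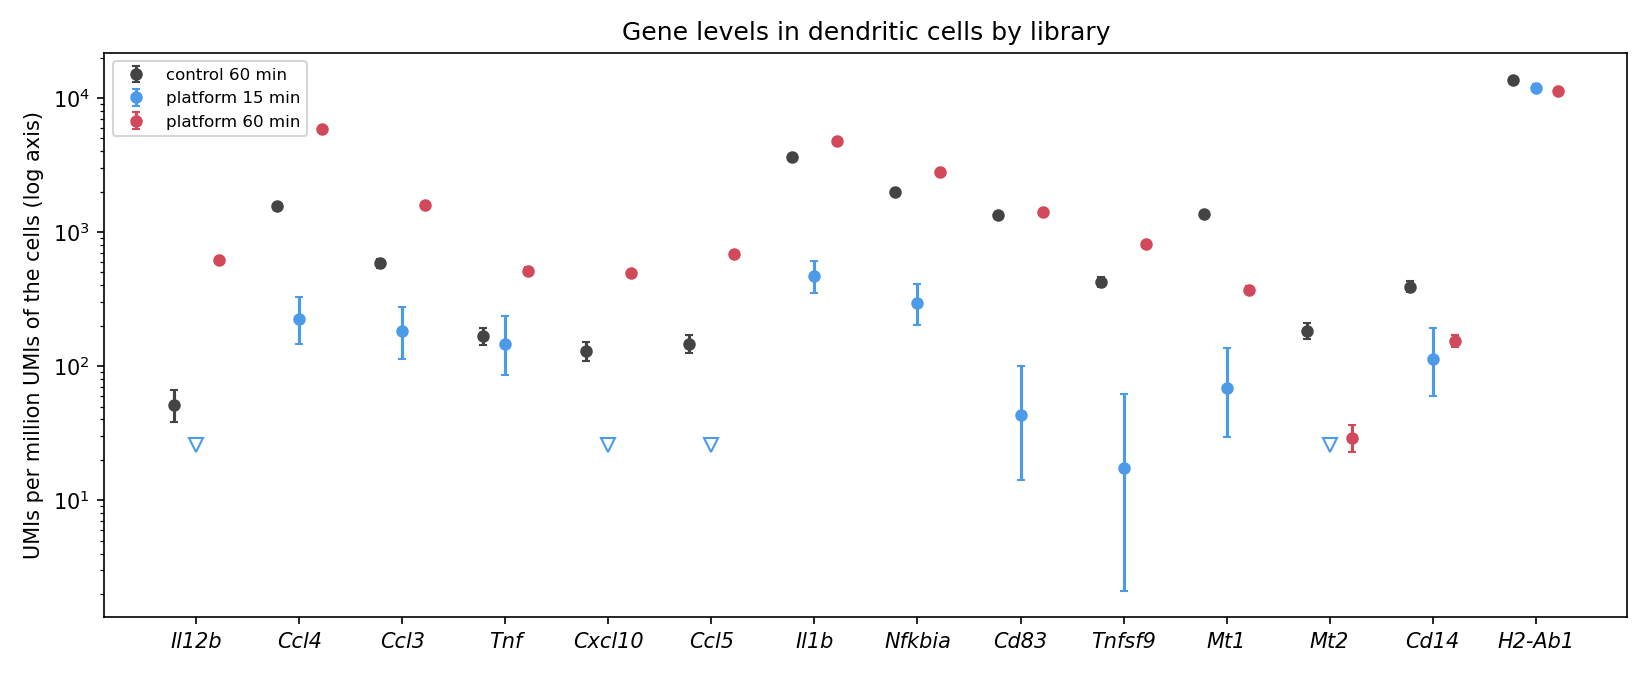
Levels of 14 genes in dendritic cells, in UMIs of the gene per 1000000 UMIs of the cells on a log axis, for each library. Bars are exact Poisson 95% intervals, many of them smaller than the points, and open triangles mark the level of 3 counts where no UMI was seen. Cd83 stands at 43.2 at 15 min, below 1331 in the control and 1411 at 60 min, and Ccl4 goes from 225 at 15 min to 5853 at 60 min.

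Some genes were higher at 15 min. Ccr2, the chemokine receptor for exit from bone marrow, stood at 279 in control, 891 after 15 min and 305 after 60 min, with UMIs in 12 of 14 cells at 15 min. Plac8, a gene of monocytes and young myeloid cells, stood at 174 in control, 891 after 15 min and 178 after 60 min, but 1 cell held 60.2% of its 15 min UMIs. The cell cycle list summed to 610.2 in control, 1842 after 15 min and 726 after 60 min, and of Stmn1, a microtubule regulator of dividing cells, 1 cell again gave 53.3% at 15 min. No order between libraries is read from Plac8 or Stmn1.

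The study asked whether device processing raises genes of the stress response, and answered with a score over a longer published list. It reported generally lower scores at 15 min and no evidence that shear in the device raised the response of any cell type. Dendritic cells were not 1 of its clusters. Only the 12 stress genes that it showed singly were read here, so the sums below are not that score. In dendritic cells the list of 12 such genes summed to 12273 in control cells (12069 to 12480.1), 10298 after 15 min (9721 to 10899.8) and 15512 after 60 min (15357 to 15668), a ratio of 60 min to control of 1.26 (1.24 to 1.29). Per cell the genes took a median of 1.12% of UMIs in the control (quartiles 0.817 and 1.54%), 1.02% at 15 min (0.466 and 1.38%) and 1.42% at 60 min (0.945 and 2.03%). No gene of the 12 was past 2-fold between 60 min and control, near the background of 3.08% and 1.22% of all genes. A ratio above 1 was seen for 10 of 12, beside 2500 of 5226 over all genes, and the median log2 ratio was 0.46. Fos, at 1.90, was past 2-fold under some settings, at 2.15 without C1q UMIs and 2.16 with cells thinned to 2000 UMIs before selection.

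Single genes of the list differed in their order over the libraries. Fos, an immediate early AP-1 factor, stood at 938 in control, 2032 after 15 min and 1785 after 60 min. Its partner Jun stood at 757 in control, 1608 after 15 min and 1208 after 60 min, so both were lowest in the control. Hsp90aa1, a heat-induced chaperone, stood at 1327 in control, 406 after 15 min and 1482 after 60 min, and Nr4a1, an early nuclear receptor, at 498 in control, 173 after 15 min and 687 after 60 min, both lowest at 15 min. The separate heat shock list of 8 chaperone genes summed to 5877 in control, 2845 after 15 min and 7343 after 60 min, the control being 2.07 times the 15 min level (1.85 to 2.32). Hspa1a, its most abundant gene at 60 min, is a near-identical copy of Hspa1b, so its counts are uncertain. The list of early response and feedback genes summed to 8770.2 in control, 5923 after 15 min and 11711 after 60 min, with 1 of 15 at least 2-fold higher at 60 min beside 3.08% of all genes, Klf2, a quiescence factor, at 362 in control, 752 after 15 min and 811 after 60 min. In the Cd209a/Clec10a class alone 0 of 15 genes were at least 2-fold higher, beside 2.27% of the 3570 genes read there, Klf2 having a ratio of 1.94 there and 1.56 without the limit of 3000 genes, beside 2.24 over all dendritic cells. In the Xcr1/Clec9a class 8 of 15 were, beside 8.39% of 2049 genes. Its 11 control cells are under the 30 required for gene ratios, so that count is a description. The ratio of the sums in that class was 2.45 (2.28 to 2.64) beside 1.34 over all dendritic cells.

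In macrophages the 12 stress genes summed to 17592 in control, 16014 after 15 min and 32238 after 60 min, and in B lymphocytes to 9635 in control, 6788 after 15 min and 12182 after 60 min. The ratio of 60 min to control was 1.83 in macrophages and 1.26 in B lymphocytes, beside 1.26 in dendritic cells. With 1 library for each condition, the difference between cell types was not tested. By class, the dendritic sum was 14093 in the control and 17854 at 60 min for Cd209a/Clec10a cells, and 8228 and 13656 for Xcr1/Clec9a cells, so the latter were lower in both libraries. Within the Xcr1/Clec9a class the ratio of the sums was 1.66 (1.57 to 1.76). Its 11 control cells are under the 30 required for gene ratios, so its count of genes is a description. In that class 6 of 12 genes were at least 2-fold higher at 60 min, again beside 8.39% of all genes read there. In the Cd209a/Clec10a class 0 of 12 were, beside 2.27%.

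Dendritic cells were also set against macrophages within each library, a description since both were selected on their own counts. Of 8575 genes that could be compared in all 3 libraries, 285 (3.32%) were at least 2-fold higher in dendritic cells in each library and 275 (3.21%) at least 2-fold lower. The highest mean log2 ratios belonged to Btla, an inhibitory receptor, with 6.83, the myeloid membrane protein gene Mcemp1 with 6.51, Ccl17 with 6.29, the calcium channel Ryr1 with 6.19, the selecting gene Cd209a with 5.77, Klrd1, a lectin chain better known from natural killer cells, with 5.76, the sialic acid receptor Siglecg with 5.59, the calcium-binding S100a4 with 5.56, the antisense gene Gm15987, whose counts may include its partner's if strand was not used, with 5.51 and the protease inhibitor Serpinb6b with 5.51. Macrophages had no UMI of Ryr1 in the control and at 15 min, of Siglecg at 15 min and of Gm15987 at 15 and 60 min. There 3 counts stood in, so the mean ratios of these genes depend on that setting and their ranks are not exact. Klrd1 stood at 267 in control, 208 after 15 min and 170.3 after 60 min in dendritic cells, mostly in the Cd209a/Clec10a class, at 285 in the control against 30.2 in the Xcr1/Clec9a class. Mcemp1 stood at 225 in control, 233 after 15 min and 127 after 60 min, against 1.47 to 2.76 in macrophages. Ccl17 at 15 min and Serpinb6b at 15 min each came from 1 cell.

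Among the lowest ratios were those of C1qa, C1qb and C1qc, which the rule held down, and of Ccl12, Apoe, Lilra5, Ms4a7, C5ar1 and Mmp13. Apoe, the lipid carrier of resident macrophages, stood at 16.97 in control, 251 after 15 min and 32.7 after 60 min in dendritic cells, and all 29 of its 15 min UMIs were in 1 cell. In macrophages it stood at 7563 in control, 7291 after 15 min and 8588 after 60 min. Ms4a7 had 1, 0 and 5 UMIs in the dendritic cells, and Lilra5 0, 0 and 1. Of the macrophage list of 18 genes, 12 of 15 compared and outside the rule were at least 2-fold lower in each library and 0 higher, beside 3.21% and 3.32% of all genes compared. Its sum, 647 in control, 1159 after 15 min and 599 after 60 min, includes the C1q genes that the rule held down and is a description.

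By list, 5 of 9 genes common to conventional dendritic cells, 5 of 10 of the Xcr1 branch, 3 of 6 of the Cd209a branch and 2 of 5 of mature cells were at least 2-fold higher than in macrophages in each library, and none lower, beside 3.32% and 3.21% of all genes compared. Monocyte genes were also higher, 7 of 7 beside the same 3.32%. Their median log2 ratio over macrophages was 4.04, beside 2.42 for the list common to conventional dendritic cells. The monocyte sum was 859 in control, 2585 after 15 min and 781 after 60 min, with Ccr2 the most abundant in the control and at 60 min. Of the 11 list genes, Chil3 and Vcan had 0 and 0 UMIs in the control, 0 and 0 at 15 min and 17 and 1 at 60 min. Whether some of the cells were of monocyte origin was not tested. The MHC class II list summed to 92061 in control, 99373 after 15 min and 80019 after 60 min in macrophages, with Cd74 included, and to 25263 in control, 26608 after 15 min and 25101 after 60 min in B lymphocytes. A few cells carried genes of plasmacytoid dendritic cells, the interferon-making branch: 5 in control cells, 0 after 15 min and 7 after 60 min held at least 3 UMIs over Siglech, Ly6d and Ccr9. That list summed to 409 in control, 95.1 after 15 min and 289.7 after 60 min, with the broadly expressed Tcf4 as its most abundant gene.

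Markers of other cell types were read in the same cells. Proximal tubule genes were higher at 60 min, 7 of 7 read being at least 2-fold above the control beside 3.08% of all genes, and summed to 619 in control, 1124 after 15 min and 1549 after 60 min. Kap, an androgen-regulated tubule gene, was the most abundant, at 331 in control, 769.5 after 15 min and 844 after 60 min, and 1, 0 and 9 cells held 5 or more UMIs over Slc34a1, Lrp2 and Miox. Without those cells 136 genes were at least 2-fold higher and 61 lower. The part of tubule RNA in the other differences was not tested.

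Distal nephron genes summed to 50.9 in control, 0 after 15 min and 62.9 after 60 min, and over the 3 libraries together Umod was the most abundant, at 14.3, 0 and 33.5. Endothelial genes, with the rule gene Pecam1 among them, summed to 13.4 in control, 25.9 after 15 min and 54.9 after 60 min. By UMIs of all libraries together Plvap was the most abundant, at 0.893, 0 and 12.5, though Pecam1 stood above it in the control and at 15 min. The B cell list, with the rule gene Cd79a at 0, summed to 149 in control, 164 after 15 min and 142 after 60 min, led by Ighm at 136 in control, 156 after 15 min and 121 after 60 min, with Pax5 at 0, 0 and 1 UMIs. The T cell list, with the 3 rule genes Cd3d, Cd3e and Cd3g at 0, summed to 67.00 in control, 0 after 15 min and 16.1 after 60 min, led by Il7r at 43.8 in control, 0 after 15 min and 9.68 after 60 min, with Trac at 0, 0 and 1 UMIs. Natural killer genes summed to 6.25 in control, 0 after 15 min and 4.44 after 60 min, led by Klre1 at 4.47, 0 and 3.23, with Ncr1, Klrb1c and Prf1 at 0, and granulocyte genes to 0.893 in control, 17.3 after 15 min and 5.65 after 60 min, led by Csf3r at 0.893, 17.3 and 5.25, with S100a8, Retnlg and Cxcr2 at 0. Stromal genes summed to 0.893 in control, 0 after 15 min and 1.61 after 60 min, with Pdgfrb at 0, and hemoglobin genes to 1.79 in control, 0 after 15 min and 1.21 after 60 min, and no gene of either list had more than 2 UMIs over the libraries, the stromal Col3a1 and Dcn and the hemoglobin genes Hbb-bs and Hba-a2 each having that number. The B cell list was thus above 0 in every library, mostly from Ighm, and the part of lymphocyte RNA in other results was not tested.

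Genes of the branches were also counted by list. Of the Xcr1 branch list 4 of 11 genes read outside the rule were at least 2-fold higher at 60 min than in the control, beside 3.08% of all genes read, and 11 of 11 had a ratio above 1, beside 2500 of 5226, with a median log2 ratio of 0.84, and of the Cd209a branch list 0 and 0 of 6 were past 2-fold up and down, beside 3.08% and 1.22%, with a median of -0.43. Within the Cd209a/Clec10a class alone the medians were -0.13 and -0.0045, beside -0.03 for all genes read there. Irf8 had a ratio of 2.01 (1.78 to 2.28) over all cells, 1.23 without the limit of 3000 genes and 0.741 in the Cd209a/Clec10a class alone. Of the mature cell list 4 of 10 read outside the rule were at least 2-fold higher and none lower, again beside 3.08% and 1.22% of all genes, with a median of 0.63 that was 0.09 in that class alone.

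Receptors for microbial patterns had 1 of 8 genes read at least 2-fold higher at 60 min and 2 lower, beside 3.08% and 1.22% of all genes read, with a median log2 ratio of -0.01, and their sum was 1071 in control, 631 after 15 min and 878 after 60 min. Clec12a, an inhibitory lectin receptor, was the most abundant in both platform intervals, at 239 in control, 164 after 15 min and 238 after 60 min. Cd14, the coreceptor for bacterial lipopolysaccharide, stood at 391 in control, 112 after 15 min and 153 after 60 min, a ratio of 60 min to control of 0.392 (0.341 to 0.451), and its UMIs at 15 min were all in 1 cell. Within the Cd209a/Clec10a class Cd14 stood at 337 in the control and 255 at 60 min, a ratio of 0.758 (0.638 to 0.902) that was not past 2-fold, and none of the 5 genes of the list read there was. With cells thinned to 2000 UMIs before selection the Cd14 ratio was 0.511.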

How the data were processed

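The authors aligned reads to mm10 with Cell Ranger 3.1.0 (submitters' processing notes), aggregated the kidney libraries with depth equalisation and deposited UMI counts. Libraries were taken from barcode suffixes. Cells with 200 to 3000 genes and at most 50% mitochondrial UMIs were kept, and the UMI rule above was applied. No doublet caller was run: cells with lymphocyte, macrophage or endothelial UMIs above the rule were left out, and those with tubule UMIs were left out in an alternative. Members and lists were chosen with earlier results of these data known. UMIs were summed over members and divided by their total. Genes needed 50 UMIs and 10 cells. Intervals are exact Poisson, Clopper-Pearson or conditional binomial, at 95% (numpy 2.4.6, scipy 1.17.1), share ratios excepted, whose intervals are log-normal, and cover counting error only. A library at 0 was set to 3 counts. Named genes were the 10 highest and 10 lowest ratios whose interval left out 1, the 10 at each end against macrophages, and list genes with at least 50 UMIs. List genes under 50 UMIs or at 0 were named after their values were seen, as was the choice among the rest. Macrophages had at least 10 C1q UMIs, B lymphocytes at least 3 of Cd79a, tubule cells at least 5 of Miox, Slc34a1 and Lrp2 without Ptprc or Pecam1. Genes at 3 counts or fewer in both groups of a library gave no macrophage ratio. Positions are from the GENCODE annotation of mm10. The ratio step was tested on simulated counts. Alternatives without Il12b among the selecting genes, and with members of at least 3000 UMIs alone, were added after the data were seen. Ifi30 and Clec7a were not analysed here, and a few single genes are not reported here.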

Additional observations from a re-analysis of the deposited data

How the results depend on the processing

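Of the comparisons above, 101 values under an alternative stayed inside the counting interval or within 1.5 times the count, and 35 moved. For single genes 523 stayed, 86 moved and 1 was counted as reversed. The Cd83 ratio of 60 min to control, counted as moved, also fell from above 1 to below 1 with cells thinned to 2000 UMIs. The cause was not tested unless stated. Without the limit of 3000 genes the dendritic share was 2.24% in the control, the Xcr1/Clec9a class 26.9% there and 36.6% at 60 min, the Cd209a/Clec10a class 55.1% and 44.1%, the genes at least 2-fold higher 323, and the stress sum at 15 min 0.763 of the control. With cells thinned to 2000 UMIs dendritic cells were 1.63% of control cells and 1.92% at 60 min, the Xcr1/Clec9a class 16.6% at 60 min, the Cd209a/Clec10a class 85.4% and 62.6%, the genes 47 higher and 16 lower, by construction with fewer genes read, and the stress ratio of 60 min to control 1.34. The 60 min share was 3.09% with a mitochondrial limit of 25%, 2.29% with at least 3 selecting UMIs, 2.29% with at least 20 UMIs of Cd74 and 2.16% without C1q UMIs. Dendritic cells were 2.32% of control cells and 2.86% at 60 min with cells of at least 3000 UMIs alone, added after the data were seen, as was leaving out Il12b. The share ratio of 60 min to control was above 1 under all 10 alternatives, with an interval that includes 1 under the 2 settings on depth. The stress ratio of 60 min to control was 1.22 without Clec10a in the rule, 1.35 without C1q UMIs, 1.29 scaled to UMIs outside mitochondrial genes and 1.29 as a mean over cells. That of 15 min to control was 0.713 with at least 3 selecting UMIs, 0.736 without Clec10a, 0.715 with more Cd74, 0.744 without C1q and 0.732 in the Cd209a/Clec10a class. Counts of higher and lower genes were 436 and 189 at 20 UMIs and 82 and 24 at 100, by construction with other genes read, 81 and 23 in the Cd209a/Clec10a class, and 332 higher as a mean over cells. In the Cd209a/Clec10a class the Irf8 ratio of 60 min to control was reversed, at 0.741. The 14 cells at 15 min limit every value there. No paired analysis was possible because each group is 1 library.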
